A study of Mus musculus with 8 samples.

Results

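Guide Sa4, the study's guide against miR-124, was compared with a construct without a guide in Cas9-positive nuclei, 1 library on each side, over every amplicon with usable reads in both libraries. Of the 16 amplicons sequenced in the series, 14 met this rule: 2 of the 3 miR-124 amplicons, both miR-128 amplicons and 10 of 11 other amplicons. Both groups were C57BL/6 wild-type mice whose motor cortex had received AAV vectors coding for CRISPR/Cas9; the brain tissue was taken at 4 weeks, its nuclei were sorted as Cas9-positive (FANS), and their genomic DNA was amplified after direct lysis. The groups differ, by their labels, only in carrying guide Sa4 or no guide. The labels call the cells neural cells. The promoter that drives Cas9, the number of animals and the number of nuclei behind a library were not given in the sources used here, and counts of DNA sequences hold no marker of cell type.

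The Sa4 library held 807912 reads and the library without guide 816110, within the 311737 to 1013538 reads of the 8 libraries in the series. Of these, 682776 and 701135 reads lay in usable blocks, a block being 1 amplicon read in 1 direction. In each library 2 blocks were left out because over 90% of their reads exceeded the mutation limit of the authors' tally. With 1 library a side, every test below compares the reads of 2 libraries and not the conditions, and intervals cover counting error only, since PCR reads are not independent molecules. For each amplicon the range over the 6 libraries of the series without guide Sa4 (Cas9-positive and Cas9-negative, with guide Sa1, guide Sa2 or no guide) is given as the spread between libraries.

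Cas9 is a nuclease that cuts both DNA strands where its guide RNA pairs with a target beside a short motif. Cells rejoin the ends, and rejoining often leaves a small insertion or deletion (an indel) at the cut. miR-124 is a neuronal microRNA that is made from several genomic copies, each transcribed as a hairpin precursor, and miR-128 is another brain microRNA with a pair of genomic copies. A cut in a hairpin's DNA can therefore change the sequence from which the mature microRNA is processed, and every copy is a separate target.

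The expected sequences of the miR-124-1 and miR-124-2 amplicons are shown because all edited reads derive from them; capitals mark the hexamer GTGAAT, which reads as NNGRRT, the motif recognised by Staphylococcus aureus Cas9. The cut was predicted 3 bases before this hexamer, between bases 60 and 61 of miR-124-1 and between bases 69 and 70 of miR-124-2, where base 1 is the 5′ base shown.
miR-124-1: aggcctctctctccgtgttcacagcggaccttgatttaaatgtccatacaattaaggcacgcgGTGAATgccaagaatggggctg
miR-124-2: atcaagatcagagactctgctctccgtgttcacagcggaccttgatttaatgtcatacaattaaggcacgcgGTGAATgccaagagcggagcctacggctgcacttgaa

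The 85 and 109 bases equal the annotated lengths of the hairpin genes Mir124a-1 and Mir124a-2 in the RefSeq annotation of GRCm38.p6, which lie within the long non-coding RNA genes Mir124a-1hg and Mir124-2hg. The 3 miR-124 amplicons share the 18 bases before the hexamer and differ in the 3 bases before those. The 21 bases before the hexamer, with the hexamer in capitals, show this and set them against the corresponding stretch of the miR-128 amplicons, where the hexamer is GTGAAC and does not read as NNGRRT.
miR-124-1: tccatacaattaaggcacgcgGTGAAT
miR-124-2: gtcatacaattaaggcacgcgGTGAAT
miR-124-3: tctatacaattaaggcacgcgGTGAAT
miR-128-1: gagaggtttacatttctcacaGTGAAC
miR-128-2: gagtgagtagcaggtctcacaGTGAAC

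With guide Sa4, 7888 of the 9468 miR-124-1 reads had an indel within 10 bp of the predicted cut, a share of 83.3% (95% Wilson interval 82.5 to 84.0%). Without guide, 7 of 11414 reads did, 0.0613% (0.0297 to 0.127%). The difference was 83.25 percentage points (Newcombe interval 82.48 to 83.99; two-sided Fisher's exact test, Benjamini-Hochberg adjusted over the 14 amplicons, p = 7.0e-300, from a p-value floored at 1e-300). Among the 6 libraries without guide Sa4 the share ranged from 0.0221 to 0.0613%, so the Sa4 library stood outside their range.

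At miR-124-2 such an indel was present in 23126 of 24306 reads with guide Sa4, 95.1% (94.9 to 95.4%), against 5 of 24430 without guide, 0.0205% (0.00874 to 0.0479%). The difference was 95.12 points (94.85 to 95.39; adjusted p = 7.0e-300, Fisher's exact test). The 6 libraries without guide Sa4 held 0.0155 to 0.0304%. Both miR-124 amplicons were thus called in the same direction, where a call needs an adjusted p under 0.05 and a difference of at least 0.1 points. Over all 14 amplicons 14.3% were called higher in indel share with guide Sa4, and the miR-124 amplicons were the whole of that 14.3%. The 0% called lower was fixed by the rule, since no control share exceeded 0.0761% and no drop could reach 0.1 points. In the Cas9-negative library of guide Sa4, 2 of 3902 miR-124-1 reads (0.0513%) and 56 of 22858 miR-124-2 reads (0.245%) had an indel.

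**Figure D1:**
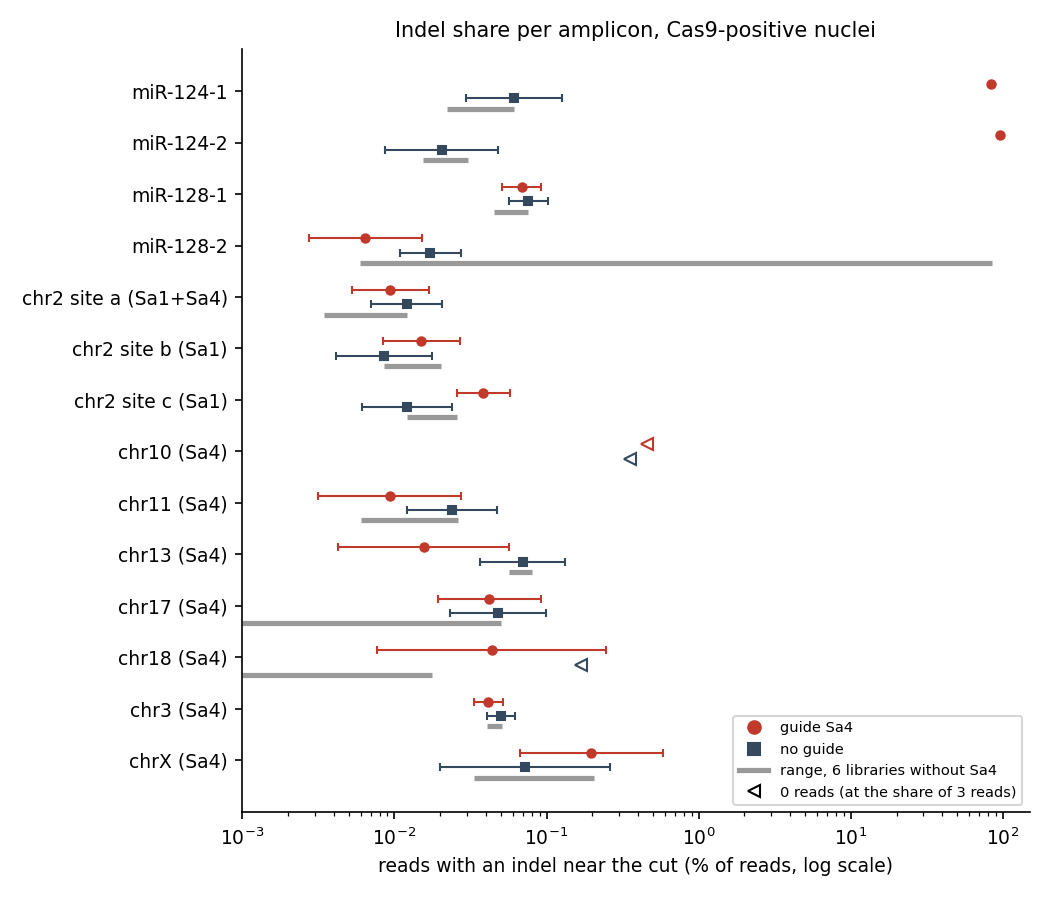
Share of reads with an indel within 10 bp of the predicted cut (log axis, percent) for the 14 amplicons, with guide Sa4 (circles) and without guide (squares) in Cas9-positive nuclei; bars are 95% Wilson intervals, open triangles mark 0 reads at the share that 3 reads would make, and grey lines span the 6 libraries without guide Sa4 (a line from the left edge starts at 0). The miR-124 amplicons lie at 83.3% and 95.1% with guide Sa4, the other 12 below 0.2%; the long grey line of miR-128-2 ends at 84.3% because 1 of the 6 is the Cas9-positive library of guide Sa2, directed at miR-128.

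The third copy could not be compared. miR-124-3 had 0 reads in the Sa4 library and 1122 in the library without guide, of which 931 carried no mutation and 53 exceeded the mutation limit. The other libraries without guide Sa4 held 118 to 31722 reads of miR-124-3, and the Cas9-negative library of guide Sa4 held 17520. The depth of this amplicon thus varied widely between libraries, and what left it without reads in the Sa4 library was not tested.

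Read directions gave the same picture with different shares. At miR-124-1 the indel share was 80.4% in 4597 forward reads and 86.0% in 4871 reverse reads. At miR-124-2 it was 88.3% in 4150 forward reads and 96.6% in 20156 reverse reads. The direction with the lower indel share was in each case the one with more reads beyond the mutation limit, 15.2% forward against 9.48% reverse at miR-124-1 and 11.6% against 3.35% at miR-124-2. Such reads are in the denominator, but their sequences are not listed in the files, so an indel in them is not seen.

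Among the listed reads alone, 94.9% (94.4 to 95.4%) carried an indel at miR-124-1 and 99.90% (99.85 to 99.93%) at miR-124-2. Listed reads without an indel near the cut numbered 421 at miR-124-1, 4.45% of all its reads (4.05 to 4.88%), and 23 at miR-124-2, 0.0946% (0.0631 to 0.142%). Fully unmutated reads made up 2.28% of miR-124-1 and 0.0658% (16 reads) of miR-124-2, against 45.0% and 71.1% without guide. Listed reads without an indel were thus a larger share at miR-124-1, and the intervals do not overlap. A share of reads is not a share of nuclei, and the amplicons differ in sequence, length and depth.

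The whole distribution of mutations per read moved up with guide Sa4. At miR-124-1 the class with 1 mutation held 41.2% of reads with guide Sa4, close to the 45.0% of the class without mutation in the control. The next classes held 21.04% with 2 mutations and 10.7% with 3, beside 21.8% with 1 and 10.1% with 2 in the control. At miR-124-2 the class with 1 mutation held 56.5%, and a second peak of 13.9% stood at 4 mutations, where the control had 1.19%. A 4-base deletion described below counts as 4 mutations in the authors' tally. Edited reads carried substitutions as well. At miR-124-1, 50.3% of indel reads also held a substitution, close to the 49.6% of indel-free listed reads in the control, and at miR-124-2 the values were 28.5% and 25.4%.

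**Figure D2:**
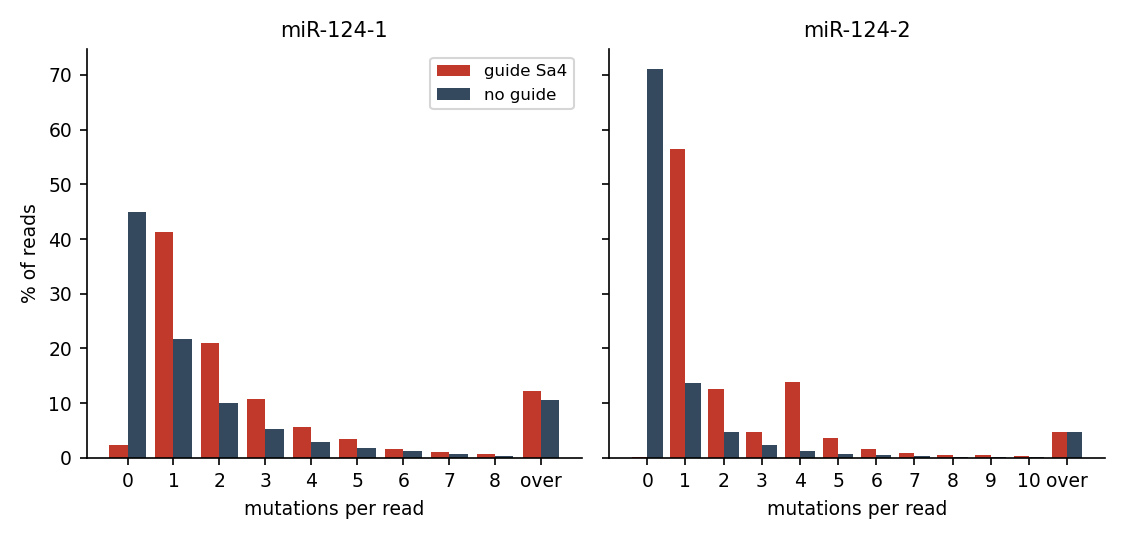
Percent of reads by number of mutations per read at miR-124-1 and miR-124-2 with guide Sa4 (red) and without guide (dark); "over" is the class beyond the mutation limit of 8 or 10. With guide Sa4 the class without mutation falls from 45.0% to 2.28% and from 71.1% to 0.0658%, and miR-124-2 shows a second peak of 13.9% at 4 mutations.

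Indels sat at the predicted cut. The highest share of reads with an insertion was found exactly between the bases flanking the cut in both amplicons, with 44.9% of all miR-124-1 reads and 48.6% of all miR-124-2 reads. Deletions were most frequent at the first base after the cut in miR-124-1 (15.2% of reads) and over the first 4 bases after it in miR-124-2 (15.5% at each). Beyond 10 bases from the cut no position of the 30 examined on either side exceeded 0.0106% of reads at miR-124-1 or 0.00823% at miR-124-2, near the 0.00876 and 0.0123% of the control. Where an inserted base equals its neighbour the place of the insertion is set by the authors' alignment, which spreads 1 event over adjacent positions.

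**Figure D3:**
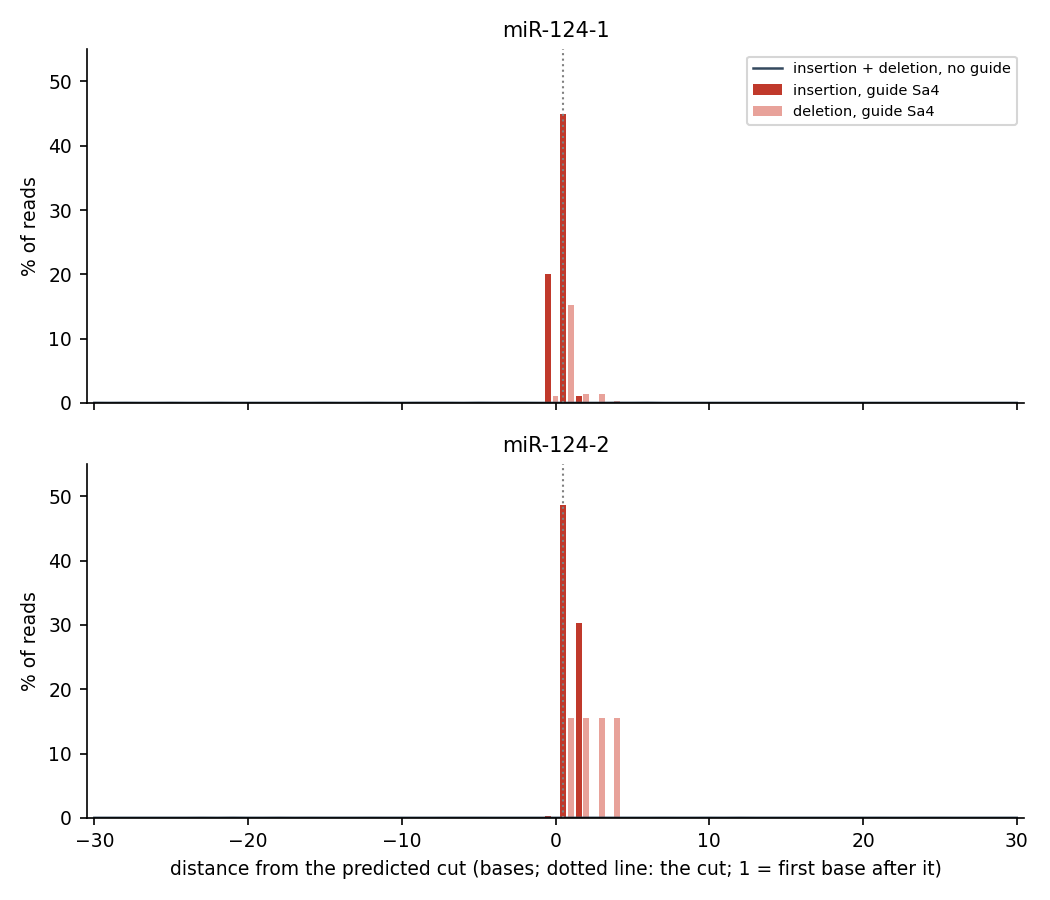
Percent of reads with an insertion (red, drawn between bases) or a deletion (pink, drawn on the base) by distance from the predicted cut in bases (0 is the last base before it), at miR-124-1 (top) and miR-124-2 (bottom) with guide Sa4; the line is the control without guide, and the dotted line is the cut. Insertions peak at the cut with 44.9% and 48.6%, and deletions reach 15.2% and 15.5% just after it.

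The alleles behind these shares were few, and the 5 with most reads at each amplicon are shown with 12 bases on either side. Capitals mark the inserted base, or the bases on both sides of a deletion; each indel is written at its leftmost place.
miR-124-1, insertion of C: acaattaaggcaCcgcggtgaatgc
miR-124-1, insertion of T: caattaaggcacTgcggtgaatgcc
miR-124-1, deletion of G: caattaaggcaCCggtgaatgcca
miR-124-1, deletion of CG: acaattaaggcACggtgaatgcca
miR-124-1, insertion of G: caattaaggcacGgcggtgaatgcc
miR-124-2, insertion of T: caattaaggcacTgcggtgaatgcc
miR-124-2, insertion of G: caattaaggcacGgcggtgaatgcc
miR-124-2, deletion of GCGG: caattaaggcaCTgaatgccaaga
miR-124-2, insertion of A: caattaaggcacAgcggtgaatgcc
miR-124-2, insertion of C: acaattaaggcaCcgcggtgaatgc

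At miR-124-1 the insertion of C, which repeats the base before the cut, made up 50.5% of indel reads (3983 reads; 49.4 to 51.6%). The insertion of T followed with 26.0% (2050 reads) and the deletion of the G after the cut with 17.1% (1351 reads). The deletion of CG across the cut had 197 reads and the insertion of G 76 reads (0.963%). These 5 alleles held 97.1% of the 7888 indel reads, and the leading 3 already held 93.6%.

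At miR-124-2 the insertion of T led with 44.7% of indel reads (10334 reads; 44.0 to 45.3%). The insertion of G, which repeats the base after the cut, had 37.7% (8730 reads) and the deletion of GCGG 3701 reads (15.5 to 16.5%). This deletion removes the 4 bases after the cut, the last of which is the first base of the hexamer. The insertions of A and of C had 0.268% (62 reads) and 0.259% (60 reads). These 5 alleles held 99.0% of the 23126 indel reads and the leading 3 held 98.4%.

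Each of these 10 alleles had 0 reads in the library without guide. Of the Cas9-negative Sa4 library's reads, 15 carried the insertion of T and 28 the insertion of A at miR-124-2, and 0 carried any of the other 8. The leading alleles were read in both directions at like shares: the insertion of C at miR-124-1 made up 50.9% of forward and 50.1% of reverse indel reads, and the deletion of GCGG at miR-124-2 14.8% and 16.2%. The rarer insertions were less even: at miR-124-2 the insertion of A had 1.39% of forward and 0.0565% of reverse indel reads, and the insertion of C 0.846% and 0.149%.

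The amplicons had the same sequence around the cut, with C before it and G after it, yet different leading alleles. An inserted single C was the event in 50.7% of the indel reads of miR-124-1 but in 0.290% of those of miR-124-2. An inserted single G was the event in 1.24% and 37.9%, respectively. An inserted single T was common at both, with 26.6% and 44.8%. Deletions of 1 base made up 17.4% and 0.177%, and deletions of 4 bases 0.0887% and 16.2%, in the same order. None of these pairs of Wilson intervals overlap. With 1 library and an unknown number of nuclei, how often each allele arose separately cannot be told apart from how far single copies were amplified.

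Single-base insertions as a whole led at both amplicons, with 79.5% (78.6 to 80.4%) for miR-124-1 and 83.4% (82.9 to 83.9%) for miR-124-2. These intervals do not overlap either, but the shares lay closer together than those of the pairs above. Insertions that lay at the cut made up 78.2% and 83.0%, and deletions touching the cut 19.9% and 16.3%. Insertions of 2 or more bases alone, and deletions of 5 or more bases alone, had 0 reads at both amplicons, which allows shares of up to 0.0380 and 0.0130% of indel reads; deletions longer than the mutation limits of 8 and 10 would not be listed. Indels whose net size was a multiple of 3 made up 0.0254% (2 reads) and 0.0130% (3 reads). In all, 33 distinct indels were counted at miR-124-1 and 43 at miR-124-2, of which 12 and 14 had at least 10 reads. The effective number of alleles, the inverse of the summed squared shares, was 2.84 and 2.72.

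**Figure D4:**
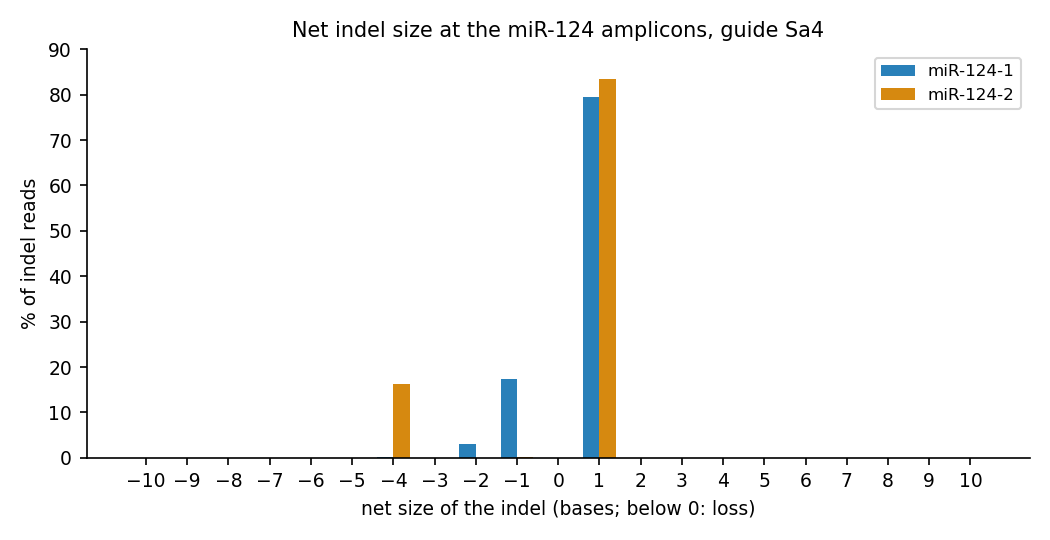
Percent of indel reads by net size in bases (below 0, bases lost) with guide Sa4, at miR-124-1 (blue) and miR-124-2 (orange). A gain of 1 base leads at both, with 79.5% and 83.4%; the main net loss is of 1 base at miR-124-1 (17.4%) and of 4 bases at miR-124-2 (16.3%).

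The miR-128 amplicons cover the other microRNA that the study targeted, with its own guide. Their expected sequences equal the RefSeq hairpins Mir128-1 (70 bases, within the protein-coding gene R3hdm1) and Mir128-2 (76 bases, within Arpp21). In both, the hexamer GTGAAC lies within the mature mmu-miR-128-3p, printed here with its seed (bases 2 to 8) in capitals.
mmu-miR-128-3p: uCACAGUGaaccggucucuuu

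With guide Sa4, 44 of the 64073 miR-128-1 reads had an indel, 0.0687% (0.0512 to 0.0922%), and 43 of 56532 without guide, 0.0761% (0.0565 to 0.102%). The difference was -0.0074 points (-0.039 to 0.023; adjusted p = 0.85, Fisher's exact test). In both libraries the leading indel was the same 2-base deletion across the cut, with 15 and 17 reads. Indels here came almost wholly from 1 read direction, as 41 of the 44 indel reads with guide Sa4 and 43 of the 43 without guide were reverse reads.

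At miR-128-2 an indel was present in 5 of 77436 reads with guide Sa4, 0.00646% (0.00276 to 0.0151%), and 18 of 104478 without guide, 0.0172% (0.0109 to 0.0272%). The difference was -0.011 points (adjusted p = 0.18, Fisher's exact test). It was not called, and from a control share of 0.0172% no drop could have reached the minimum of 0.1 points. Neither miR-128 amplicon was called, against 14.3% of all 14 amplicons, and both Sa4 values lay within the range of the 6 libraries without guide Sa4, although at miR-128-2 that range runs up to the 84.3% of the Cas9-positive library of guide Sa2. For listed indels within 10 bp, the Newcombe interval at miR-128-1 reached up to 0.0232 points. It reached 0.102 points with indels anywhere and 0.456 points with reads beyond the limit counted as indels. That at miR-128-2 ended just below 0 (-0.0214 to -4.6e-05). It spanned 0 with a window of 5 bp (-0.0106 to 0.00646) and stayed below 0 with reads beyond the limit left out (-0.0223 to -3.1e-05).

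The 11 other amplicons were chosen by the authors as possible sites of cutting elsewhere in the genome: 7 were named for guide Sa4, 3 for Sa1 and 1 for both. Each is a target with 20 bases on either side and carries a hexamer that reads as NNGRRT. Their positions are those in the authors' names, whose genome build was not given in the sources used here, and no gene is assigned to them. The guide's own sequence was not used here, so likeness was measured against the 18 bases shared by the miR-124 amplicons. The 3 amplicons named for Sa4 that came closest without a gap are shown, with capitals at each base that differs from those 18 (the first 3 bases and the hexamer were not compared).
chr13-59004015: ctcTtacaTttaaggcacgGgttgagt
chr11-6135151: gtcatacaatAaagTcaGgcAcagagt
chr3-70303938: gtcatacaaCtaaAgcaGTcggtgaat

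With position 1 at the first of the 18 shared bases, chr13-59004015 differed at 3 positions (A1T, A6T, C17G), chr11-6135151 at 4 (T8A, G12T, C15G, G18A) and chr3-70303938 at 4 (T7C, G11A, C15G, G16T). With gaps allowed, all 11 sites lay 2 to 4 changes from the 18 bases.

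None of the 10 amplicons compared was called in indel share, against 14.3% of all 14. Their Sa4 shares ran from 0 to 0.197% and their control shares from 0 to 0.0723%. Summed, they held 140 indel reads of 507493 with guide Sa4 and 145 of 503159 without guide. The share was higher with guide Sa4 at 4, lower at 5 and equal at 1, and at 7 of the 10 it lay within the range of the 6 libraries without guide Sa4.

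The amplicons named for Sa4 alone gave the following counts. At chr13-59004015, 2 of 12824 reads carried an indel with guide Sa4 (0.0156%) and 9 of 12915 without (0.0697%; adjusted p = 0.18, Fisher's exact test), and the Sa4 share lay below the 0.0565 to 0.0803% of the 6 libraries. At chr11-6135151 the counts were 3 of 32211 (0.00931%) and 8 of 33354 (0.0240%). At chr3-70303938, the deepest of them, they were 79 of 190616 (0.0414%) and 91 of 181069 (0.0503%). The differences at the last pair of amplicons were -0.015 and -0.0088 points (adjusted p = 0.44 for each, Fisher's exact test).

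In both libraries the leading event at chr3-70303938 was a 1-base deletion at distance -6, where 0 is the last base before the cut, with 34 and 57 reads. At chr17-49055768, 6 of 14265 reads (0.0421%) and 7 of 14612 (0.0479%) carried an indel. At chrX-37055312 the counts were 3 of 1519 (0.197%) and 2 of 2767 (0.0723%), whose difference of 0.13 points had an interval from -0.11 to 0.51 (adjusted p = 0.55, Fisher's exact test). The shallow amplicons limit what can be seen: chr18-57173043 had 1 of 2284 reads (0.0438%) and 0 of 1785, which allows a share of up to 0.168%. At chr10-114394356, 0 of 656 and 0 of 845 reads carried an indel, which allows shares of up to 0.457 and 0.355%.

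Among the amplicons named for Sa1, alone or with Sa4, chr2-134788648 had 11 of 117296 reads (0.00938%) and 13 of 107972 (0.0120%), and chr2-180302569 had 11 of 73429 (0.0150%) and 7 of 81816 (0.00856%). chr15-5432906 could not be compared, since 99.2% of its reads in each library exceeded the mutation limit. At chr2-46717939, 24 of 62393 reads (0.0385%) carried an indel with guide Sa4 and 8 of 66024 (0.0121%) without, a difference of 0.026 points (0.0091 to 0.046; adjusted p = 0.018, Fisher's exact test) that passed the test but not the minimum of 0.1 points. The Sa4 value lay above the 0.0121 to 0.0258% of the 6 libraries, and the Cas9-negative Sa4 library held 0.0348% (22 of 63276). The 6 libraries include those of guide Sa1, for which the amplicons of this paragraph were named, so their range is not one without a guide for these sites. In both libraries compared, this amplicon had forward reads only, so its indels could not be checked in the other direction. Of the 24 reads, 13 had a 1-base deletion, the leading indel had 6 reads and began at distance -7 on the same scale, and 0 had an indel that reached the cut from 3 bases or less before it. With a window of 5 bp, with indels of at least 2 bp or against the highest of the 6 libraries the adjusted p of Fisher's exact test was 0.20, 1 and 0.52. With indels anywhere in the amplicon the difference was 0.060 points (0.027 to 0.094; Fisher's exact test, adjusted p = 0.0017), still under 0.1 points.

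Reads beyond the mutation limit were compared separately, because a deletion longer than the limit (6 mutations at the other amplicons) would fall there. This class was called at 5 of the 14 amplicons (35.7%), 28.6% higher and 7.14% lower with guide Sa4. Its sequences are not listed. The Cas9-negative library of guide Sa4 stood apart in this class: it exceeded all 6 libraries without guide Sa4 at 11 of the 14 amplicons, also at miR-128-1 with 19.0% and at chr17-49055768 with 54.3%.

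Without a gap, chr13-59004015 was the site closest to the miR-124 target. With gaps allowed it lay 3 changes from the 18 shared bases, as did chr2-46717939, chr18-57173043 and chrX-37055312. By that count chr2-180302569 was closer, with 2 changes, and its share beyond the limit was not called (Fisher's exact test, adjusted p = 0.14). At chr13-59004015, 15.6% of reads with guide Sa4 exceeded the limit (1999 reads) and 12.5% without guide. The difference was 3.14 points (2.29 to 3.99; adjusted p = 3.1e-12, Fisher's exact test). The other 6 libraries, those without guide Sa4, ranged from 11.98 to 12.61%, so the gap to the highest of them was larger than their whole range. The Cas9-negative Sa4 library held 20.2%, so the Cas9-positive Sa4 library was not the highest of the series here. The excess appeared in both directions, 24.5% against 21.6% in forward reads (range of the 6 libraries 20.8 to 23.0%) and 7.87% against 4.28% in reverse reads (3.35 to 5.53%). In reverse reads the unmutated share was 69.8% against 73.7%, and listed mutated reads made up 22.30% against 22.05%, within the 21.2 to 23.9% of the 6 libraries. In forward reads the unmutated share was 20.4% against 22.4%, and listed mutated reads made up 55.1% against 56.0%, below the 55.9 to 57.2% of the 6 libraries. Listed indels did not rise with it, as given above, and what the reads beyond the limit contain was not tested.

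At miR-124-1, 12.2% of reads exceeded the limit with guide Sa4 against 10.6% without, a difference of 1.64 points (0.77 to 2.51; adjusted p = 7.4e-04, Fisher's exact test), above the 10.6 to 10.9% of the 6 libraries. The Cas9-negative Sa4 library, with 0.0513% of reads carrying an indel there, held 18.04%. The excess was 2.71 points in forward reads and 0.73 points in reverse reads, where it was not called (Fisher's exact test, adjusted p = 0.36). An indel adds at least 1 mutation to a read, and reads already at 8 mutations made up 0.412% of the control; the part of this in the excess was not tested. At miR-124-2, with its higher limit of 10, the shares were 4.76% and 4.65% and the difference was not called (Fisher's exact test, adjusted p = 0.75).

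The other 3 calls lay close to or within the spread between libraries. At chr3-70303938 the shares were 6.28% and 5.96% (range of the 6 libraries 5.96 to 6.40%). At chr18-57173043 they were 8.27% and 17.9% (6.54 to 18.4%), where the Sa4 library was near the low end and the control near the high end. At chrX-37055312 they were 21.4% and 17.998% (17.3 to 20.4%; Fisher's exact test, adjusted p = 0.021), and against the highest of the 6 libraries the adjusted p was 0.66. The miR-128 amplicons differed by 0.085 and 0.12 points and were not called.

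**Figure D5:**
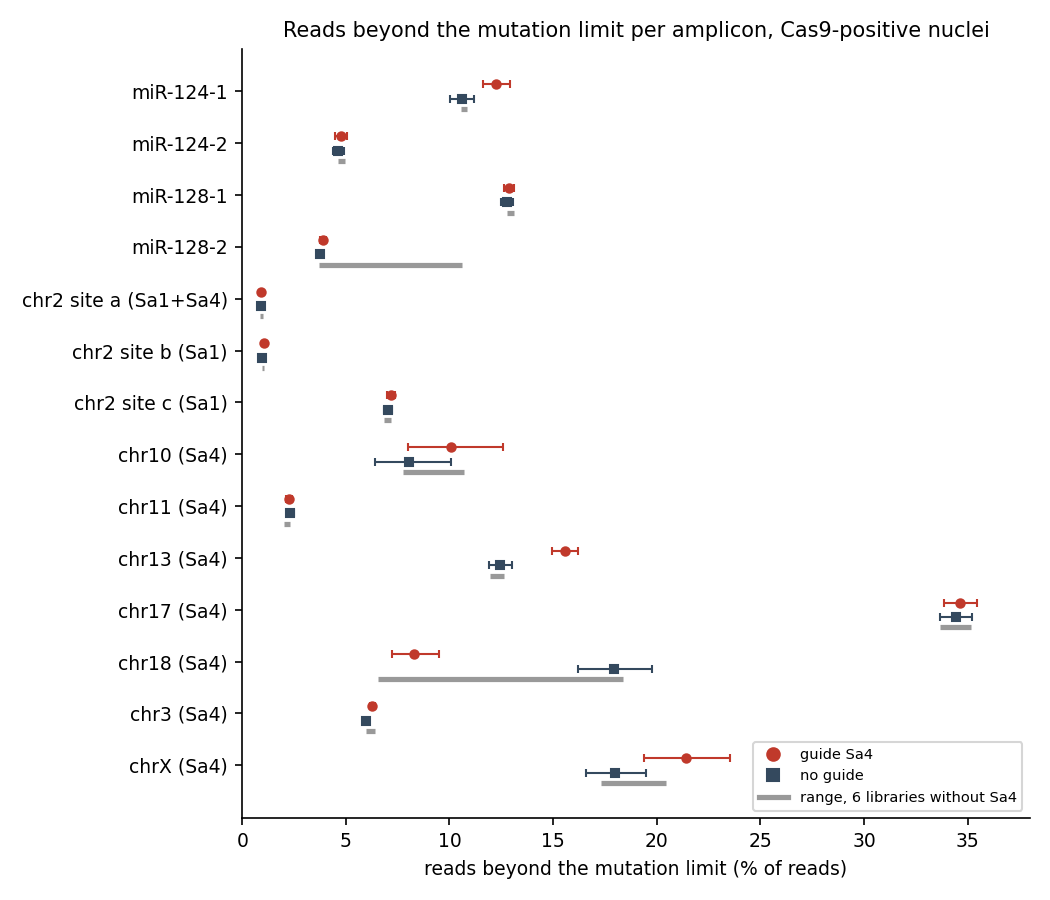
Percent of reads beyond the mutation limit at the 14 amplicons with guide Sa4 (circles) and without guide (squares); bars are 95% Wilson intervals and grey lines span the 6 libraries without guide Sa4. The Cas9-positive Sa4 library stands clear of that range at chr13 (15.6% against 11.98 to 12.61%) and at miR-124-1 (12.2% against 10.6 to 10.9%), and just above it at chrX.

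Substitutions near the cut were called at 2 of 14 amplicons (14.3%), 7.14% higher and 7.14% lower with guide Sa4. At miR-124-1, 21.2% of reads held a substitution within 10 bp of the cut with guide Sa4 and 22.8% without (adjusted p = 0.042, Fisher's exact test). This Sa4 value lay below the 21.9 to 23.2% of the 6 libraries. The call was lost once reads beyond the limit were left out, and with read counts divided by 2. In forward reads the shares were 31.6% with guide Sa4 and 34.7% without, and the call was kept. In reverse reads they were 11.3% and 10.9%, and the difference was not called. At chr3-70303938 the shares were 13.8% and 13.0% (Fisher's exact test, adjusted p = 2.4e-12), and the Sa4 value lay within the 13.0 to 13.8% of the 6 libraries. At miR-124-2 the shares were 7.82% and 7.43% (Fisher's exact test, adjusted p = 0.22), and the Sa4 value lay above the 7.21 to 7.67% of the 6 libraries.

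The share of unmutated reads was called at 10 of the 14 amplicons (71.4%), 64.3% lower and 7.14% higher with guide Sa4. The difference was -42.71 points at miR-124-1 and -71.08 points at miR-124-2. At the 7 other amplicons called lower it ran from -2.63 to -0.42 points. It was -2.63 points at chr13-59004015, -1.49 at chr3-70303938 and -1.42 at chr2-46717939, and -0.63 and -0.80 points at miR-128-1 and miR-128-2. Of these 7, 4 lay within the range of the 6 libraries without guide Sa4 (at miR-128-2 that range includes the edited library of guide Sa2), and 3 (chr13-59004015, chr2-134788648 and chr2-180302569) below it. The control had the highest unmutated share of the 6 libraries at 5 of the 14 amplicons. At chr18-57173043 the share was 70.2% against 63.4%, within the 63.4 to 72.8% of the 6 libraries.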

How the data were processed

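The deposited files hold whole-number read counts per sequence, per the file headers: 1 block for each of 16 amplicons and 2 read directions, with the reads tallied by mutations per read and every mutated sequence listed with its reads. Per the submitters' processing notes, bcl2fastq and cutadapt were used; aligner, genome build and filters were not given in the sources used here. Reads above a mutation limit, higher for longer amplicons, form a last class whose sequences are not listed. Every listed sequence was placed on its expected sequence (0 not placed), and reader and tests were checked on simulated data.

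An indel read has an inserted or deleted base within 10 bp of the predicted cut, over all usable reads of the amplicon, both directions pooled. Shares at chr2-46717939, chr10-114394356 and chr2-134788648 rest on forward reads only, and those at chr3-70303938 on reverse reads only. If some reads are mates of 1 fragment, intervals are too narrow. Blocks with over 90% of reads beyond the limit were left out. Shares carry 95% Wilson intervals and differences Newcombe intervals; counts of 0 are printed with what 3 reads would give. Two-sided Fisher's exact tests (SciPy 1.17.1) were adjusted (Benjamini-Hochberg) over all amplicons, for each of 4 measures: indels, substitutions, reads beyond the limit and unmutated reads. Every amplicon is named, and of alleles the 5 with most reads per miR-124 amplicon. For miR-128 the cut was placed before GTGAAC. Alternatives were other windows, sizes, read minimums, directions and controls. Members, tests and lists were chosen with earlier results of these data known. Gene names come from RefSeq (GRCm38.p6). Of the 5 targeted hairpins, the 2 of miR-128 matched its miRNA sequences, and no entry was available to compare those of miR-124.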

Additional observations from a re-analysis of the deposited data

How the results depend on the processing

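No paired analysis was possible because each group has 1 library, and no replicate could be left out. The indel differences at miR-124-1 and miR-124-2 kept their direction and their call under all 11 alternatives, from 2.49 and 15.6 points (indels of at least 2 bp only) to 94.9 and 99.9 points. miR-128-1 was not called under any of 11. miR-128-2 was called only against the highest of the 6 libraries without guide Sa4, which carries the guide against miR-128, with -84.3 points. The count of other amplicons with a different indel share stayed at 0 except with reads beyond the limit counted as indels, which gave 4. Calls of substitutions went from 2 of 14 amplicons to 8 of 14 with substitutions anywhere. With sequences of at least 10 reads they were 5 of 14, and with reverse reads 1 of 11. With reads beyond the limit left out, or read counts divided by 2, they were 1 of 14. Calls of reads beyond the limit went from 5 of 14 to 3 of 13 with forward reads only. Of the calls lost there, chrX-37055312 was tested and not called, while chr3-70303938 has no forward reads and was not tested. Calls of unmutated reads ranged from 8 of 11 (reverse reads only) to 11 of 14 (against the highest of the 6 libraries). The share of single-base insertions was 82.2% at miR-124-1 with sequences of at least 10 reads and 84.1% at miR-124-2 with forward reads. Among alternatives chosen after seeing the data, the excess beyond the limit at chr13-59004015 kept its call in all 4 (2.87 to 3.59 points), that at miR-124-1 lost it in reverse reads (0.73), and that at chrX-37055312 lost it with forward reads (2.41), against the highest library (0.95) and with read counts divided by 2 (3.34).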

Other observations

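The blocks left out of the comparison were the same in both libraries. The reverse reads of chr2-134788648 numbered 115518 with guide Sa4 and 106757 without, and 99.99% and 99.98% of them exceeded the mutation limit, while 0.922% and 0.921% of the forward reads of this amplicon did. The forward reads of chr15-5432906 numbered 9618 and 8218, with 99.2% beyond the limit in each. Reads were spread unevenly over the amplicons in like manner in both libraries: chr2-134788648 and chr3-70303938 took 28.8% and 23.6% of the Sa4 library and 26.3% and 22.2% of the control, and miR-124-1 and miR-124-2 took 1.17% and 3.01% against 1.40% and 2.99%.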
